A study of Mus musculus with 6 samples.

Results

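Neutral fat in hepatocytes is stored in lipid droplets, and 10 genes that encode proteins of the droplet surface and of droplet growth were followed here in liver of mice on a high-fat diet. They were chosen by name and comprise the perilipins Plin2, Plin3, Plin4 and Plin5, the CIDE genes Cidea, Cideb and Cidec, the lipase inhibitors G0s2 and Hilpda, and Fitm2, which acts in droplet formation. All 10 were found among the 35082 genes to which the deposited transcripts were assigned, and all 10 passed the filter on low counts that left 12497 genes for testing. The study compared 3 male mice of genotype G3BP1f/f, called controls, with 3 males of genotype Alb-cre; G3BP1f/f, in which Cre recombinase is driven by the albumin promoter and therefore acts in hepatocytes. Other labels call the controls wild-type. Both groups carried the floxed alleles, were 8 weeks old at the start and received high-fat diet for 20 weeks. No group on another diet and no Cre control without floxed alleles is analysed here, so the values describe livers on high-fat diet alone. RNA was taken from whole liver tissue, in which fewer cells of a type and less RNA per cell cannot be told apart. Each library is 1 liver, and the 3 libraries of a group are the replicates.

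A lipid droplet is a core of triglyceride and sterol ester under a single layer of phospholipid and protein. Perilipins coat that surface and limit the access of lipases, and perilipin 2 is the main coat protein of the fatty hepatocyte. CIDE proteins sit where droplets touch and pass lipid from the smaller droplet to the larger, and CIDEB also acts in the lipidation of very low density lipoprotein. G0S2 and HILPDA bind and inhibit adipose triglyceride lipase, the enzyme that opens lipolysis, and FIT2, the product of Fitm2, serves the budding of new droplets from the endoplasmic reticulum. Several of these genes are known targets of the peroxisome proliferator-activated receptors, and Cidea and Cidec are known to be induced in fatty liver.

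The 6 libraries held 20899135 to 21750007 estimated counts each, and mitochondrially encoded genes took 7.2% to 7.62% of them in the controls and 7.55% to 10.1% in the other group. G3bp1, the targeted gene, stood at 44.1, 34.8 and 40.5 CPM, or counts scaled to a common library size, among controls against 44.0, 30.0 and 31.5 CPM among the livers labelled knockout, here and below in the order of replicates 1 to 3. The groups overlapped (log2 difference -0.18, standard error 0.22, edgeR adjusted p = 0.909), and the sum over the gene does not check the loss of a single exon. These livers are therefore called knockout-labelled. The effective length given for transcripts of 100 bases is 3.5 in knockout-labelled replicate 1 but 100 in the other 5 libraries. TPM values of transcripts this short thus rest on unlike length corrections. For long transcripts, length less effective length ran from 241.9 to 262.3 bases over the 6 libraries, with knockout-labelled replicate 1 inside that range. Lengths in between are not covered here, and the part of this in other TPM values was not tested. The 12 listed hepatocyte markers were all tested, and summed to between 105113 and 134807 CPM in the controls and to 119808, 118195 and 70588 CPM in knockout-labelled replicates 1 to 3, led by albumin (Alb).

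Cidec and Plin5 each have 2 annotated transcript starts that the files quantify separately, and the results on their transcripts given further on turn on these sites. The 150 bases before each start, as GENCODE places it, are shown. They were cut from the RefSeq promoter table, which holds 12 windows for 9 of the 10 genes, all but Cidea. For upstream Plin5 the window of that table, chr17:56117499-56117798, is placed on a start somewhat downstream of the GENCODE one. Coordinates are on GRCm38.p6, and all 4 stretches are read on the minus strand, 5′ to 3′. They lie at chr6:113435761-113435910 and chr6:113434765-113434914 for Cidec and at chr17:56117597-56117746 and chr17:56117299-56117448 for Plin5. Capitals mark any match, on either strand, to 5 short motifs. The motif AGGTCA is an element of nuclear receptor sites. The letters searched for a TATA box were TATAA. The others were CCAAT, which binds the factor NF-Y in many promoters, then the E-box with the letters CACGTG, and lastly part of the cyclic AMP response element with the letters TGACG.
Cidec upstream start: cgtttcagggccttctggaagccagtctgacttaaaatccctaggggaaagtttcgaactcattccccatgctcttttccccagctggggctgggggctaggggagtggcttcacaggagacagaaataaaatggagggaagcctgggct
Cidec downstream start: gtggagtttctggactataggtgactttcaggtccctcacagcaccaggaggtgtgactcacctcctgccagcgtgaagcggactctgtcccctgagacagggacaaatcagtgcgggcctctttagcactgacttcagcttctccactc
Plin5 upstream start: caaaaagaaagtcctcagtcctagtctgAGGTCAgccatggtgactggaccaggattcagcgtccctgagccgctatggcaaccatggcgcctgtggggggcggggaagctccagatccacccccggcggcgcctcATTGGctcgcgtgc
Plin5 downstream start: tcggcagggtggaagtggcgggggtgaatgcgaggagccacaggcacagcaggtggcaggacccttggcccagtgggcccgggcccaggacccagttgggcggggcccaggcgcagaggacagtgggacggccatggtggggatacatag
Matches were found in the stretch before the upstream Plin5 start, to AGGTCA and, on the opposite strand, to CCAAT. For comparison, 32851 promoter stretches of the same length were taken before the starts of the promoter table. The nuclear receptor element was present in 8.58% of them, the CCAAT motif in 24.5% and the TATA motif in 14.2%. The E-box was present in 4.3% and the cyclic AMP element in 13.3%. The full windows of 300 bases are placed on the starts of the promoter table and run past them. In these the nuclear receptor element was present for Plin2 and for both Plin5 starts and in 16.3% of all windows. The TATA motif was present for Cideb, Plin4, a Hilpda window and the upstream Plin5 start (24.9% of all windows). CCAAT was present for Plin2, Plin3, Plin4 and the upstream Plin5 start (37.4%). Plin2 also had the E-box (7.15%), and G0s2 and both Hilpda windows had the cyclic AMP element (20.8%). G and C made up 54% and 56% of the bases before the upstream and downstream Cidec starts and 63.3% and 70% before those of Plin5.

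Per length of transcript, G0s2, Plin2 and Cideb had the highest mean levels in both groups. By TPM, a level scaled for transcript length and library, these 3 genes together took 95.2%, 92.3% and 87.7% of the summed level of the set among controls against 89.8%, 92.4% and 76.6% among knockout-labelled livers. They were the 3 highest genes of the set in 5 of the 6 libraries, and in knockout-labelled replicate 3 Cidea (150 TPM) stood above Cideb (134 TPM). The order of mean levels in the controls was G0s2, Plin2, Cideb, Cidea, Cidec, Plin5, Fitm2, Plin3, Plin4 and Hilpda. Means ran from 435 ± 131 TPM for G0s2, through 241 ± 75.8 for Plin2 and 217 ± 34.9 for Cideb, to 2.60 ± 2.17 for Hilpda (SD, n = 3 each). Control ranges did not touch between Cideb (184 to 253 TPM) and Cidea (16.9 to 54.4 TPM), nor between Fitm2 (5.87 to 9.66 TPM) and Plin3 (3.85 to 5.63 TPM). All other neighbours in that order overlapped. In the knockout-labelled libraries Plin5 (24.3 ± 4.69 TPM) stood just before Cidec (23.8 ± 19.6 TPM), and the order was otherwise the one of the controls.

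**Figure D1:**
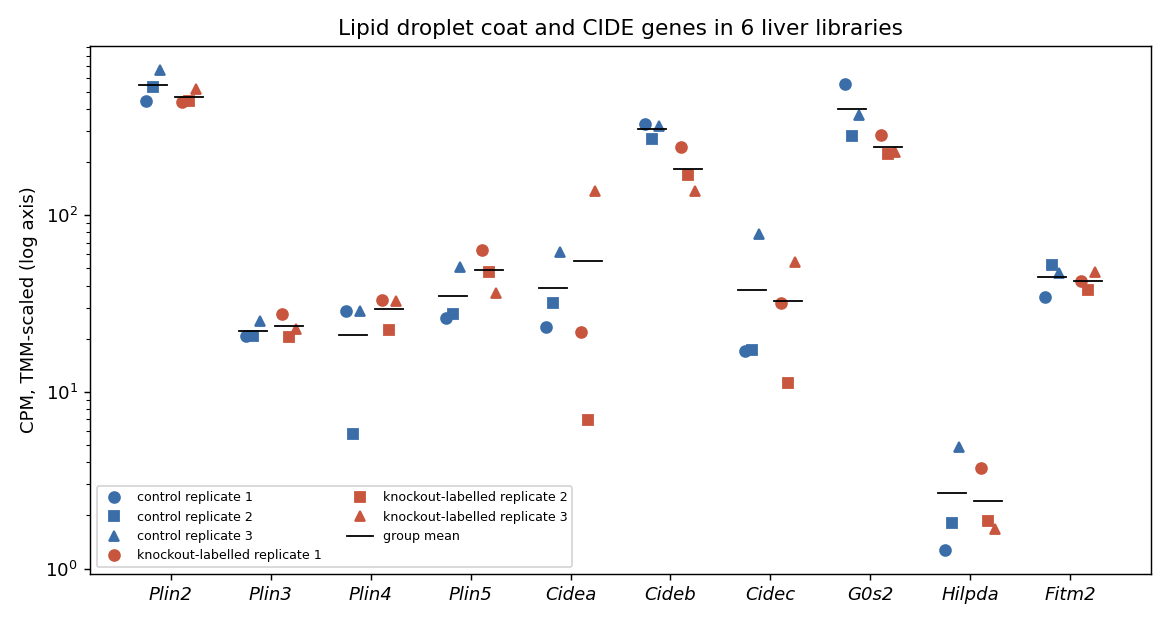
Level of each gene in CPM scaled with TMM factors, on a log axis, in the 3 control and 3 knockout-labelled libraries, with 1 point per library and a black line at the group mean. Cideb is the gene whose groups are fully apart, between 271 and 330 CPM in controls and between 137 and 242 CPM in the knockout-labelled libraries, while Cidea runs from 6.95 to 137 CPM within the latter.

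No gene of the set differed between the groups past the threshold. Of the 10 genes 0 were called by the edgeR quasi-likelihood test (adjusted p under 0.05 over 12497 genes), where the background was 0% of all genes, and the adjusted p ran from 0.845 to 0.968. DESeq2 called 0 of the 10 as well, with 0.0881% of all genes called. At an unadjusted p under 0.05 there were 2 of the 10, Cideb and G0s2, both lower in the knockout-labelled libraries, where 4.55% of all genes passed. Separate groups, with no overlap, were found for 1 of the 10, Cideb, where 9.34% of all genes were free of overlap. The log2 difference lay above 0 for 4 of the 10, with 51.6% of all genes above 0, and its median was -0.11 beside 0.01 over all tested genes.

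**Figure D2:**
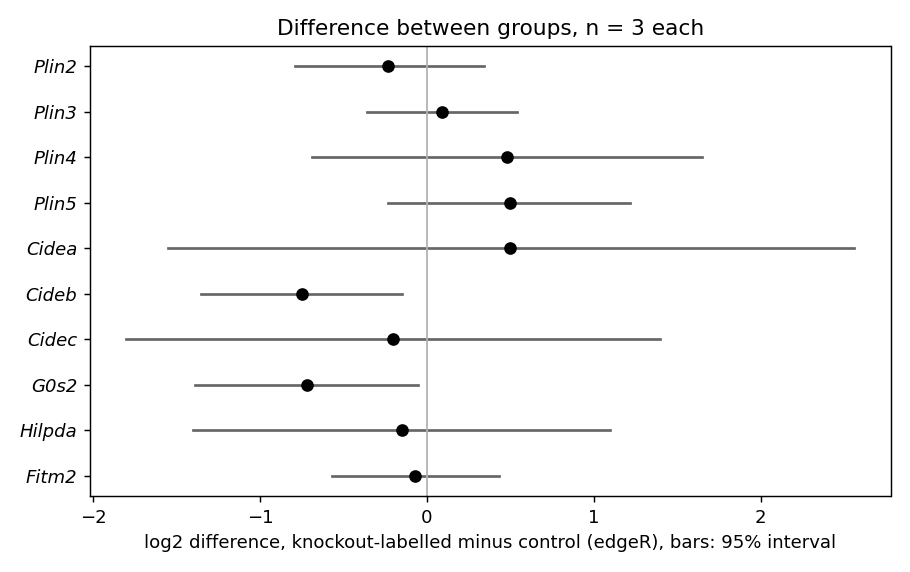
Log2 difference between knockout-labelled and control libraries for each gene (edgeR, n = 3 each), with bars for the 95% interval. The intervals of Cideb (-1.35 to -0.15) and G0s2 (-1.39 to -0.05) lie below 0 before adjustment, and those of the other 8 genes include 0.

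Among the perilipins, Plin2 was the most abundant and varied little. Plin2 (ENSMUSG00000028494, chromosome 4, 86648386 to 86670060, minus strand, GRCm38), whose protein covers droplets in most cells and is broken down when it is not bound to lipid, stood at 441, 535 and 665 CPM among controls against 440, 441 and 520 CPM among knockout-labelled livers. Control replicate 3 was the highest and the groups overlapped (log2 difference -0.23, 95% interval -0.79 to 0.34, edgeR adjusted p = 0.896). The standard deviation of its log2 level over the 6 libraries was 0.24, and 22.9% of tested genes had a smaller one. Nearly all of its counts, between 8137.2 and 13736.9 per library, lay on 1 of its 8 transcripts. Plin3 (ENSMUSG00000024197, chromosome 17, 56277476 to 56292873, minus strand), a perilipin that moves between cytosol and droplet, stood at 20.7, 20.8 and 25.1 CPM among controls against 27.7, 20.4 and 22.8 CPM among knockout-labelled livers. Its standard deviation over the 6 libraries was 0.18, and the groups overlapped (log2 difference 0.09, 95% interval -0.36 to 0.54, edgeR adjusted p = 0.947).

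Plin4 and Plin5, which lie close together on chromosome 17, were higher on average in the knockout-labelled libraries without passing the test. Plin4 (ENSMUSG00000002831, 56100591 to 56109803, minus strand), a large perilipin of small nascent droplets, stood at 28.7, 5.75 and 28.7 CPM among controls against 33.1, 22.4 and 32.7 CPM among knockout-labelled livers. Control replicate 2 stood apart at 105 counts, where the other 5 libraries had 507 to 780. The log2 difference was 0.48 (standard error 0.51, edgeR adjusted p = 0.894), and it was 0.03 without control replicate 2. Plin5 (ENSMUSG00000011305, 56111601 to 56117596, minus strand), which tethers droplets to mitochondria in oxidative tissues, stood at 26.3, 27.8 and 50.7 CPM among controls against 63.9, 47.9 and 36.1 CPM among knockout-labelled livers. Control replicate 3 lay above knockout-labelled replicates 2 and 3, so that the groups overlapped. Its log2 difference of 0.50 (95% interval -0.23 to 1.22, edgeR adjusted p = 0.845) was 0.87 when control replicate 3 was left out, 0.33 when its replicate 1 was, and 0.26 without knockout-labelled replicate 1.

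Cidea and Cidec varied more between livers of 1 group than between the groups. Cidea (ENSMUSG00000024526, chromosome 18, 67343604 to 67367785, plus strand), abundant in brown fat and known to appear in fatty liver, stood at 23.3, 31.7 and 62.0 CPM among controls against 21.8, 6.95 and 137 CPM among knockout-labelled livers. The knockout-labelled group held both the lowest and the highest library, 19.7-fold apart, and the log2 difference of 0.50 had a standard error of 0.90 (edgeR adjusted p = 0.939). Leaving out knockout-labelled replicate 3 gave -1.44, leaving out its replicate 2 gave 1.03 and replicate 1 gave 0.88. Leaving out a control gave 0.24, 0.37 and 1.02 for replicates 1 to 3, and limma voom, which weighs log values, gave -0.38. Cidec (ENSMUSG00000030278, chromosome 6, 113424634 to 113435760, minus strand), also called FSP27, stood at 17.1, 17.2 and 78.4 CPM among controls against 32.0, 11.2 and 54.7 CPM among knockout-labelled livers. For both genes control replicate 3 and knockout-labelled replicate 3 were the highest libraries and knockout-labelled replicate 2 the lowest. The log2 difference of Cidec was -0.20 (95% interval -1.80 to 1.40, edgeR adjusted p = 0.967), and it turned to 0.94 when control replicate 3 was left out. Leaving out knockout-labelled replicate 2 gave 0.21 and leaving out replicate 3 gave -0.80. It was -0.55 without control replicate 1 and likewise without control replicate 2. The standard deviation of log2 CPM over the 6 libraries was 1.46 for Cidea, 1.08 for Cidec and 0.96 for Plin4, beside a median of 0.35 over all tested genes.

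Fat cells carry Cidea, Cidec, Plin4 and G0s2 at high levels, so markers of adipocytes are given beside them. Of the 12 listed adipocyte genes, 5 passed the filter on low counts, among them Cidea itself, and 3, Lep, Tshr and Ucp1, had 0 counts in all 6 libraries. Adiponectin (Adipoq) had at most 2 counts in any library, and Plin1, the perilipin that defines the white fat cell, had 0 in the controls and 1 or 2 in the knockout-labelled libraries. Without Cidea the list summed to 87.7, 31.5 and 61.0 CPM among controls against 79.2, 38.0 and 83.0 CPM among knockout-labelled livers. Cfd, the gene of adipsin, had 42.5, 5.31 and 11.4 CPM against 29.3, 8.9 and 41.8 CPM. The other tested genes of the list followed other orders. Fabp4 had 10.4, 7.23 and 39.7 CPM against 36.1, 8.59 and 10.8 CPM. Adrb3 had 22.8, 9.97 and 2.95 CPM against 6.73, 11.6 and 17.4 CPM, and Lipe 11.4, 8.98 and 6.38 against 6.69, 8.81 and 11.7 CPM. Both the sum and Cfd were close in control replicate 1 and knockout-labelled replicate 3, whose Cidea levels were 23.3 and 137 CPM, and the part of adipocytes in the Cidea value was not tested beyond these levels. In knockout-labelled replicate 3 Adipoq had 1 count, Plin1 had 2 and Lep 0, where Cidea had 3269. Hepatocyte markers had their lowest sum there, at 70588 CPM, of which Alb made up 42813 CPM. Apoa1, Apoc3, Ttr, Cps1 and Fah were also at their lowest there, and Serpina1a, Cyp2e1, Ass1, Tat, Hnf4a and Pck1 were not. The part of these levels in the Cidea value was not tested. Kupffer cell and macrophage markers, 12 of 12 tested, summed to 283, 440 and 922 CPM among controls against 410, 290 and 365 CPM among knockout-labelled livers, with 0 called, 12 below 0 and a median log2 difference of -0.61. The highest sum was in control replicate 3, which was also the highest library for Plin2, Cidec and Hilpda. Markers of lipid-associated macrophages, 9 of 9 tested, summed to 131 CPM there and to between 47.8 and 90.1 CPM elsewhere, and the part of these cells in the 3 genes was not tested. Listed markers of neutrophils, stellate cells, endothelial cells and gut or gallbladder had 0 called genes as well.

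**Figure D3:**
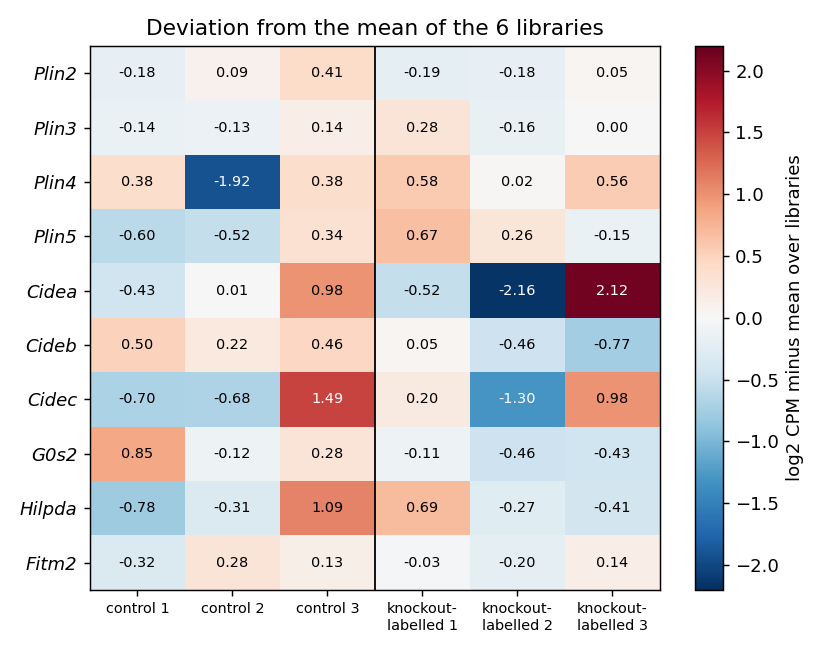
Deviation of each gene's log2 CPM from its mean over the 6 libraries, in log2 units, with genes in rows and libraries in columns. Cidea and Cidec are high in control replicate 3 (0.98 and 1.49) and in knockout-labelled replicate 3 (2.12 and 0.98), Plin4 is low in control replicate 2 (-1.92), and Cideb is above 0 in the 3 controls and at 0.05, -0.46 and -0.77 in the knockout-labelled libraries.

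Cideb had the lowest log2 difference of the set, without passing the test. Cideb (ENSMUSG00000022219, chromosome 14, 55754050 to 55758458, minus strand), the CIDE protein of the normal hepatocyte, stood at 330, 271 and 321 CPM among controls against 242, 170 and 137 CPM among knockout-labelled livers. Every control lay above every knockout-labelled library on this scale, a separation found for 9.34% of all genes, with means of 307 ± 31.6 and 183 ± 54.0 CPM (SD, n = 3 each). The log2 difference was -0.75 (standard error 0.26, 95% interval -1.35 to -0.15), which did not pass over all genes (edgeR adjusted p = 0.845, or 0.605 by DESeq2). It stayed between -1.01 and -0.58 with each library left out in turn, the former without knockout-labelled replicate 1. The groups overlapped with library totals and in the deposited TPM, at 215, 184 and 253 TPM against 197, 158 and 134 TPM in the latter. Of the exon bases of Cideb 76.3% are also exon bases of Nop9 on the other strand, and without stated use of strand the reads of the 2 genes there cannot be told apart. Nop9 itself ranged from 11.2 to 20.4 CPM over the 6 libraries.

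G0s2 followed with nearly the same difference. G0s2 (ENSMUSG00000009633, chromosome 1, 193272161 to 193273217, minus strand), an inhibitor of adipose triglyceride lipase that is abundant in liver and fat, stood at 554, 281 and 371 CPM among controls against 284, 222 and 227 CPM among knockout-labelled livers. Control replicate 2 and knockout-labelled replicate 1 were level, so that the groups overlapped by that pair alone. The log2 difference was -0.72 (standard error 0.29, 95% interval -1.39 to -0.05, edgeR adjusted p = 0.845), and it was -0.42 without control replicate 1. Cideb and G0s2 have short transcripts, of 1212 and 871 bases, and short genes as a class moved between libraries. The median deviation of genes of at most 800 bases, somewhat shorter than these, was 0.13 to 0.31 log2 units among controls against 0.22, -0.31 and -0.54 among knockout-labelled livers. When the trend over transcript length was taken out of each library, the difference was -0.61 for Cideb and -0.42 for G0s2, and of the pair Cideb alone stayed at an unadjusted p under 0.05. Scaling to library totals moved the median of all genes from 0.01 to 0.27. The differences were then -0.50 for Cideb and -0.46 for G0s2, which is -0.77 and -0.74 relative to that median. Their unadjusted edgeR p was 0.0955 and 0.156 on that scale. With 1 library left out, the unadjusted edgeR p ran from 0.00291 to 0.0752 for Cideb and from 0.0147 to 0.135 for G0s2.

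Hilpda had the lowest mean level and Fitm2 one of the steadiest. Hilpda (ENSMUSG00000043421, chromosome 6, 29272488 to 29275446, plus strand), a lipase inhibitor induced by fatty acids and by low oxygen, had 24, 33 and 103 counts among controls against 86, 42 and 40 among knockout-labelled livers, or 1.28, 1.81 and 4.91 against 3.71, 1.86 and 1.68 CPM. The highest library, control replicate 3, was 3.84-fold above the lowest, control replicate 1, and the log2 difference was -0.15 (95% interval -1.40 to 1.10, edgeR adjusted p = 0.968). Its direction turned with the library left out. Without control replicate 3 it was 0.65, and without knockout-labelled replicates 2 or 3 it was 0.01 and 0.06. Leaving out control replicates 1 or 2 gave -0.48 and -0.36, and leaving out knockout-labelled replicate 1 gave -0.60. Fitm2 (ENSMUSG00000048486, chromosome 2, 163466379 to 163472629, minus strand) stood at 34.6, 52.6 and 47.2 CPM among controls against 42.5, 37.8 and 47.6 CPM among knockout-labelled livers. The knockout-labelled values all lay within the range of the controls (log2 difference -0.07, 95% interval -0.57 to 0.43, edgeR adjusted p = 0.962).

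**Figure D4:**
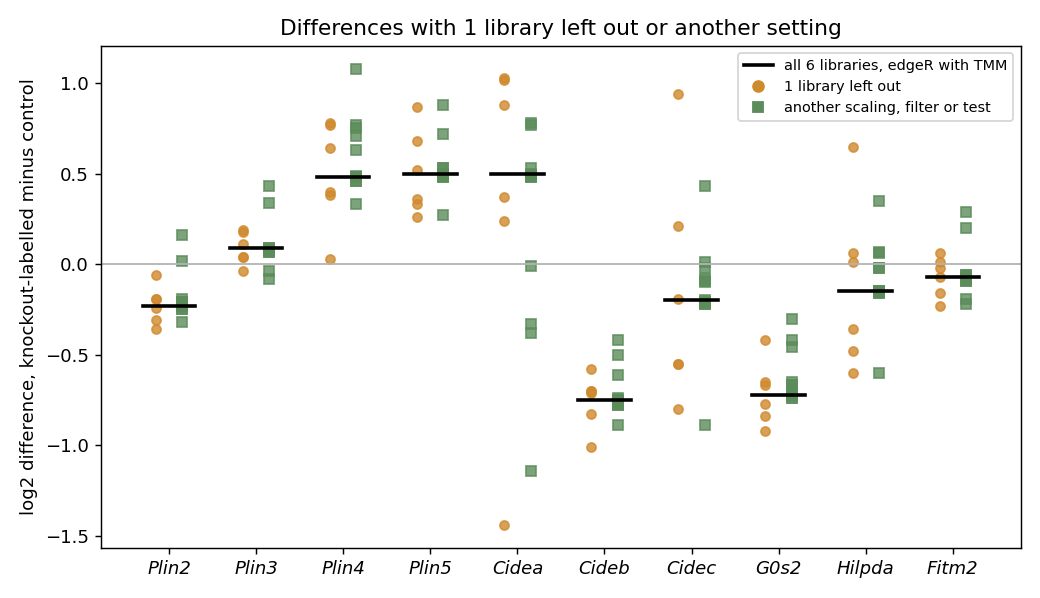
Log2 difference of each gene under the reported fit (black line), with 1 library left out (circles) and with another scaling, filter or test (squares). Cideb and G0s2 keep values below 0 throughout, from -1.01 to -0.42 and from -0.92 to -0.30, Plin4 and Plin5 keep values above 0, and the other 6 genes cross 0 under at least 1 of these settings.

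Below the level of the gene, counts were divided between transcript starts in unlike ways among the livers. Of the 4 Cidec transcripts in the files, a pair uses the upstream start and differs in 17 exon bases, too few to be told apart, so these were summed, and another had 0 counts throughout. The downstream transcript begins 996 bases after the longer of that pair, and its start codon lies 10 codons ahead of and in frame with theirs. That is the known layout of FSP27β, the longer liver form of the protein, and the sequences before both starts are printed above. Estimated counts of the downstream transcript were 4.4, 12.5 and 65.0 among controls against 3.6, 31.8 and 222.8 among knockout-labelled livers. As a share of the counts of the gene this was 1.38%, 3.97% and 3.95% among controls against 0.489%, 12.5% and 17.1% among knockout-labelled livers. The downstream transcript is annotated as much shorter, at 785 bases, and as a share of the TPM of the gene it took 3.67%, 10.2% and 10.1% among controls against 1.33%, 28.3% and 36.3% among knockout-labelled livers. On both scales knockout-labelled replicates 2 and 3 had the highest shares and replicate 1 the lowest of all, so the groups overlapped. The 95% Wilson intervals of the shares of counts ran from 2.43% to 6.93% in control replicate 2 and from 3.11% to 5.01% in control replicate 3, and from 9.07% to 17.2% and 15.1% to 19.2% in knockout-labelled replicates 2 and 3. For control replicate 1 and knockout-labelled replicate 1 they were 0.486% to 3.16% and 0.21% to 1.38%. These intervals cover counting error only, and not the division of reads between transcripts that share most of their bases. The annotated downstream transcript also lacks 923 bases of the last exon of the others, so reads from there count toward the upstream start.

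Plin5 showed a like division. The downstream Plin5 transcript starts 298 bases after the upstream one, and both are annotated with the same start codon, at 56117126. The share of the downstream transcript was 8.42%, 37.5% and 44.9% among controls against 7.84%, 55.7% and 53% among knockout-labelled livers. As for Cidec, control replicate 1 and knockout-labelled replicate 1 had the lowest shares and knockout-labelled replicates 2 and 3 the highest. In counts, the downstream transcript had 41.6, 190.6 and 478.1 among controls against 116.1, 602.5 and 455.9 among knockout-labelled livers, and the upstream transcript had 452.4, 317.3 and 585.9 against 1364.9, 479.6 and 405.1. Most of the high Plin5 sum of knockout-labelled replicate 1 thus lay on the upstream transcript. The Wilson intervals were 6.35% to 11.3%, 33.5% to 41.9% and 42% to 47.9% in the controls and 6.57% to 9.31%, 52.8% to 58.7% and 49.6% to 56.3% in the knockout-labelled libraries. Knockout-labelled replicate 1 is the library with the other length correction for very short transcripts, which control replicate 1 does not share. Both of these libraries had 0 counts on the shorter of the paired upstream Cidec transcripts, which had 162.4 to 854.3 in the others. The part of the division of reads between like transcripts in the low shares of both was not tested. Knockout-labelled replicates 2 and 3 also had the most transcripts with counts above 0, at 36.3% and 37.8% where the other libraries had 30.2% to 31.2%, and the part of this in the shares was not tested.

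**Figure D5:**
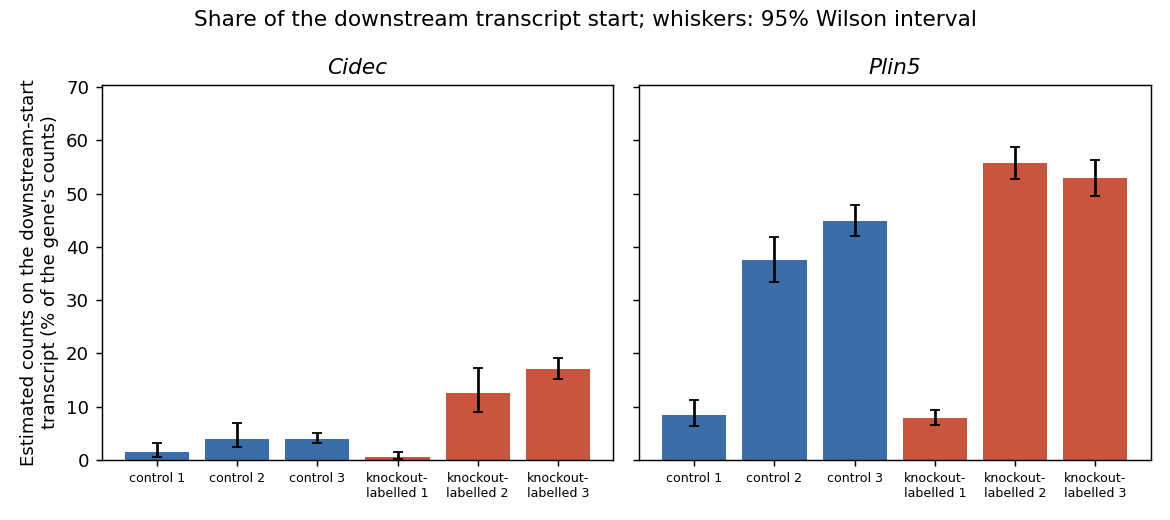
Share of each gene's estimated counts on the transcript of the downstream start, in percent, for Cidec (left) and Plin5 (right) in each library, with whiskers for the 95% Wilson interval. Control replicate 1 and knockout-labelled replicate 1 are lowest for both genes, at 1.38% and 0.489% for Cidec and 8.42% and 7.84% for Plin5.

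Other genes of droplet biology were taken from lists written with earlier results of these data known. Among 17 tested genes of droplet formation and other droplet proteins, 0 were called higher and 0 lower, 11 lay above 0, and the median log2 difference was 0.05. The 4 with the smallest p were Fitm1, the paralogue of Fitm2 (log2 difference -0.70), the droplet methyltransferase-like Mettl7b (-0.89), the lipid transfer protein gene Vps13c (1.19) and Hsd17b11, a short-chain dehydrogenase of droplets (-0.62), each with an edgeR adjusted p of 0.845. Fitm1 had 131, 121 and 115 CPM among controls against 74.9, 55.2 and 95 CPM among knockout-labelled livers, without overlap. Mettl7b had 1275, 871 and 844 against 722, 440 and 452 CPM, likewise without overlap. In TPM the groups overlapped for Fitm1, with its highest value of 125 TPM in knockout-labelled replicate 3. For Mettl7b they were narrowly apart, at 579 TPM for the lowest control against 577 for the highest knockout-labelled library. Of the 17 genes 4 were free of overlap (23.5%, beside 9.34% of all genes).

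The list of droplet lipolysis and lipophagy genes, which also holds lipoprotein and hepatic lipases, had 16 tested genes. Of these 0 were called in either direction, 12 lay below 0 and the median was -0.17. The smallest p values were those of the lipoprotein and hepatic lipases Lpl (-0.74) and Lipc (-0.45), the autophagy receptor gene Sqstm1 (0.38) and the lysosomal acid lipase gene Lipa (0.44). Of the 16 genes 4 were free of overlap (25.0%, beside 9.34% of all genes), among them Sqstm1 and, by a margin lost in rounding, Lipc. Lipc stood at 179, 179 and 128 CPM among controls against 117, 128 and 111 CPM among knockout-labelled livers. In TPM the groups overlapped for Sqstm1 and for Lipc, the latter with means of 74.4 and 75.0 TPM. Triglyceride synthesis and lipoprotein loading gave 15 tested genes, 0 called, 10 below 0 and a median of -0.11. Dgat2, which makes the last step of triglyceride synthesis, had a log2 difference of 0.31, at 182, 184 and 177 against 232, 240 and 200 CPM. It was the 1 gene of the 15 without overlap (6.67%, beside 9.34% of all genes). Mogat1, a monoacylglycerol acyltransferase induced in fatty liver, had -0.89, Gpat3 -0.51 and Soat2 0.42.

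Receptor targets were described because several members of the set belong to them. Of 23 tested PPAR-alpha target genes 0 were called, 17 lay below 0 and the median was -0.22, with Cpt2 (-0.41), Acaa1a (-0.41), Acot2 (-0.57) and Ppara itself (0.43) at the smallest p. Of 12 tested PPAR-gamma and steatosis-induced genes 0 were called, 7 lay below 0 and the median was -0.11. Scd1, the stearoyl-CoA desaturase, had a log2 difference of 1.22 (edgeR adjusted p = 0.845), and it shared neither the lowest nor the highest library with Cidea. It stood at 566, 773 and 1102 CPM among controls against 2891, 1642 and 1145 CPM among knockout-labelled livers. Of 19 tested hypoxia-inducible genes, to which Hilpda is related, 0 were called, the median was -0.05 and 12 were below 0. The smallest p values were those of Vegfa (0.71), Pfkfb3 (-0.77), Higd1a (-0.31) and Kdm3a (0.36).

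The genes most like Cidea, the most variable member, and G0s2, the most abundant per length, were found among 11427 genes with a mean of at least 1 CPM. Likeness was the root mean square difference between the centred log2 CPM profiles over the 6 libraries. For Cidea these were Themis, at 0.55 log2 units, Gnai1 at 0.56 and Id3 at 0.72. Themis stood at 4.47, 5.97 and 14.5 CPM among controls against 5.01, 2.35 and 13.2 CPM among knockout-labelled livers. Tpm2 and Impdh1 were closest to G0s2, both at 0.12, followed by Tfpt at 0.13. Tpm2, a tropomyosin gene, had 47.8, 25.2 and 39.2 against 23.8, 20.5 and 22.6 CPM. With 6 libraries such a search finds close profiles among many genes, and it is given as a description.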

How the data were processed

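Salmon-style tables of 115221 transcripts were deposited, 1 per library. They hold deposited estimated counts, which carry the depth of each library, and deposited TPM values, scaled within a library for effective length, per the file headers. The submitters' processing notes name Bowtie2 2.2.5, RSEM 1.2.8, DESeq and GRCm38 with no role. No source used here names the transcriptome behind the files. Identifiers were matched without version to GENCODE M21 (GRCm38), where 113664 matched, and the 1557 others, between 0.216% and 0.268% of counts, were left out. Counts were summed per gene, rounded, filtered with filterByExpr, scaled with TMM factors (0.84 to 1.14) and tested with the edgeR 4.0.16 quasi-likelihood test in R 4.3.3, two-sided, on all 6 libraries, with Benjamini-Hochberg adjustment over 12497 genes. Standard errors are the absolute log2 difference over the square root of F, and intervals use 8.37 degrees of freedom. CPM values carry TMM factors, and deviations use log2 CPM with a prior count of 2. The members and gene lists were chosen with earlier results of these data known. Named genes are the 10 members, G3bp1, up to 4 genes with the smallest p in each pathway list, and the 3 genes closest in profile to the most variable and to the most abundant member. Genes added after their values were seen are Nop9 and the hepatocyte and adipocyte markers named. The design text calls the 3 mice of a group biological replicates. Alternatives were DESeq2 1.42.0, limma 3.58.1 (voom, and log2 of TPM plus 0.1), other scalings and filters, a length offset, a loess trend over length (span 0.5), the replicate block and each library left out. Estimated counts hold counting error and the uncertainty of dividing reads among transcripts.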

Additional observations from a re-analysis of the deposited data

How the results depend on the processing

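No member was called under any alternative run. DESeq2 called 11 genes of all those tested and leaving out 1 library gave 0 to 3. The members free of overlap numbered 2 in place of 1 with RLE size factors, with the effective length offset, with no low-count filter, and with DESeq2, where 7.98% to 9.47% of all genes were free of overlap. They were 2 with each library left out (2 to 2), where the share of all genes was 12.7% to 36.0%, and 0 with library totals and with TPM, where it was 19.0% and 20.1%. The members' median of -0.11 became -0.46 in limma voom with sample weights, 0.32 in TPM, and -0.30 to 0.42 with 1 library left out. Medians of the other pathway lists, with their signs, depended on scaling as well. All lay above 0 with library totals (0.07 to 0.32) and in TPM (0.15 to 0.38). The PPAR-alpha list was lowest on both scales. Directions turned as follows. With library totals, where the median of all genes is 0.27, Plin2 was 0.02, Cidec 0.01, Hilpda 0.06 and Fitm2 0.20. Relative to that median they were -0.25, -0.27, -0.21 and -0.08. In TPM, where the median of all genes is 0.34, Plin2 was 0.16, Cidea -0.01, Cidec 0.43, Hilpda 0.35 and Fitm2 0.29. With the length trend removed Plin3 was -0.04 and Hilpda 0.07. Cidea was -0.38 in limma voom and -1.14 with sample weights, where Plin3 was -0.08. With 1 library left out the range was -1.44 to 1.03 for Cidea, -0.80 to 0.94 for Cidec, -0.60 to 0.65 for Hilpda, -0.04 to 0.19 for Plin3 and -0.23 to 0.06 for Fitm2. The cause was not tested. The replicate block turned Cidea to -0.33 and called 0 genes. The deviations of same-numbered libraries correlated at 0.20, 0.27 and -0.14 for replicates 1 to 3, and those of differently numbered ones at -0.43 to 0.34. With 3 livers a group, these values cannot decide whether the numbers pair the samples. Of the values of single members under the alternatives, 146 kept their direction and their side of the threshold and 24 turned. With 3 livers a group, the intervals of Cidea, Cidec and Hilpda reach beyond 1 log2 unit on both sides of 0.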

Other observations

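Fitm1, whose product FIT1 is known chiefly from skeletal muscle, was more abundant per length in these livers than its paralogue Fitm2. Fitm1 measured 113, 110 and 121 TPM among controls against 81.4, 68.6 and 125 TPM among knockout-labelled livers, where Fitm2 ranged from 5.87 to 12.0 TPM over all 6 libraries. The 8 listed skeletal muscle genes summed to at most 0.586 CPM in any library, and none passed the filter on low counts. Of the exon bases of Fitm1, 11.2% are also exon bases of Gm15932 on the other strand.

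The shorter of the paired upstream transcripts of Cidec had 0 counts in control replicate 1 and in knockout-labelled replicate 1, and 259.6, 854.3, 162.4 and 759.3 in control replicates 2 and 3 and knockout-labelled replicates 2 and 3. It differs from its longer partner in 17 exon bases.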
